A study of Mus musculus with 40 samples.

Results

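Complement components, receptors and regulators were followed here as 9 genes of the 55487 in the count table of a mouse co-culture study. The 9 were given by name: the components *C1qa*, *C1qb*, *C1qc*, *C4b* and *C3*, the receptors *C1qbp* and *C5ar1*, and the regulators *Serping1* and *Cd59a*. All 40 libraries were used, by cell type and treatment, beginning with the groups that had been given the complement proteins C1Q and C5.

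Both cell types came from 1 mouse ES-cell line that carries the Hlxb9-GFP transgene (B6.Cg-Tg(Hlxb9-GFP)1Tmj/J), in which the Hb9 promoter drives eGFP, and every culture had been differentiated with retinoic acid and smoothened agonist. ES-astrocytes, astrocyte-like cells grown from glial progenitors of these cultures and matured with forskolin, received a mediator for 24 h, after which sorted ES-motor neurons were plated on top. Both cell types were then sorted, and poly(A) RNA of about 200 cells per sample was made into full-length cDNA libraries and sequenced. The question behind the panel was which neuroinflammatory mediators make ES-astrocytes reactive and harmful to ES-motor neurons.

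The 5 treatments were no mediator (control), C1Q with C5, IL-1α with TNF-α (the positive control of the panel), IL-1β with IL-6, and TGF-β2. Each treatment was represented in each cell type by 4 biological replicates, A to D, which gave 10 groups of 4 libraries. The eGFP sort reads the activity of the Hb9 promoter and not the identity of a cell, and all cells trace back to that 1 line, so the replicates are cultures and not animals. In the sample sheet the control and IL-1α with TNF-α libraries had plate index 1, and the libraries of the other 3 treatments had plate index 2. For C1Q with C5, IL-1β with IL-6 and TGF-β2, treatment and plate index therefore cannot be told apart in a comparison with control.

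ES-astrocyte libraries held 1510823 to 16054290 counts (median 4670242), and ES-motor neuron libraries held 6557 to 19717324 (median 1213482). Of the 40 libraries, 9 lay under 20% of the median total of 2459461 counts, all of them ES-motor neurons, among them all 4 of the IL-1α and TNF-α group and replicate A of the C1Q and C5 group with its 6557 counts. Levels are given in CPM, read counts scaled by TMM to a common library size over the 40 libraries, and a count of 0 allows up to 3 counts, the floor used throughout. That floor ran from 0.23 to 2.04 CPM in single ES-astrocyte libraries and from 0.153 to 203 CPM in single ES-motor neuron libraries. Floors and intervals cover counting error only, since reads without molecular identifiers are not independent molecules.

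The labels were checked against marker genes. In ES-astrocytes 8 of 11 astrocyte markers had counts, with a summed level of 628 to 2818 CPM per library, led by *Fabp7* (mean 1430.2 CPM). *Slc1a2*, *Slc1a3* and *Gja1* were present at means of 128, 35.5 and 62.3 CPM, whereas *Gfap*, *Aqp4* and *Aldh1l1*, which define mature astrocytes, were at 0 in all 20 ES-astrocyte libraries. In ES-motor neurons the 6 motor neuron markers summed to 597 to 4672 CPM, led by *Mnx1*, the gene for Hb9 (mean 1055 CPM), against 15.2 to 101 CPM in ES-astrocytes. The sort itself used the Hb9 promoter, so *Mnx1* is no independent check of the label. The means of *Isl1*, *Isl2*, *Chat* and *Slc18a3* were also higher in ES-motor neurons, but that of *Lhx3* was not (8.85 CPM, against 12 CPM in ES-astrocytes). The 6 general neuron markers, led in both cell types by *Stmn2*, reached 2838 to 9450 CPM in ES-motor neurons and were also counted in every ES-astrocyte library, at 1258 to 2933 CPM. The oligodendrocyte lineage list of 7 genes stayed at or below 45.7 CPM in ES-astrocytes (*Sox10* at 0) and 36.7 CPM in ES-motor neurons (highest *Mbp*, *Olig1* and *Cspg4* at 0).

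Control ES-astrocyte replicate A stood apart from the other 19 ES-astrocyte libraries. Mitochondrial genes held 1.12% of its counts and its 10 highest genes 4.65%, against 2.62 to 3.95% and 10.1 to 19% in the others. Its astrocyte list had the lowest sum of the 20 (628 CPM, others from 810 CPM), its motor neuron list the highest (101 CPM, others up to 98 CPM), and it also had the highest *C1qbp* and *Serping1* levels. Results that rest on it are given with and without it, and what set it apart was not tested.

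The complement system is a cascade of plasma and tissue proteins that tags surfaces for uptake, calls in immune cells and can end in a membrane pore. C1q, made of A, B and C chains, starts the classical pathway, C4 and C3 are cleaved in turn to form the enzymes that carry it on, and cleavage of C5 releases a fragment that acts on the receptor encoded by *C5ar1*. In the nervous system microglia are the main source of C1q, astrocytes can make C3 when they become reactive, and inhibitors on the cell surface protect neurons.

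Adding C1Q and C5 protein was not accompanied by counts of the C1q genes or of *C5ar1* in either cell type. *C1qa* (ENSMUSG00000036887, chromosome 4:136895917-136898803) and *C1qb* (ENSMUSG00000036905, 4:136880129-136886187), which encode the A and B chains, had 0 counts in all 40 libraries. *C1qc* (ENSMUSG00000036896, 4:136889804-136893065), the gene for the C chain, had 1 count in total, in ES-astrocytes given TGF-β2, replicate B (0.0973 CPM). *C5ar1* (ENSMUSG00000049130, 7:16246743-16259540), the receptor for the C5a fragment, also had 0 counts in all 40 libraries. In the C1Q and C5 groups a count of 0 over the 4 libraries allows up to 0.142 CPM (ES-astrocytes) or 0.591 CPM (ES-motor neurons). Over all 20 libraries of a cell type it allows up to 0.0257 CPM for ES-astrocytes or 0.0464 CPM for ES-motor neurons, so levels below these were not detectable at this depth. These coordinates and those that follow are of the mouse build GRCm38, and all 9 members are protein-coding genes there.

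Markers of microglia, the usual source of C1q, were sparse beside these genes. Of 14 microglial genes 7 had counts in ES-astrocytes, with a summed level of 10.1 to 66.9 CPM per library. *Aif1*, *P2ry12*, *Ptprc*, *Trem2*, *Tyrobp*, *Laptm5* and *Ctss* were at 0 in all 20 ES-astrocyte libraries. In ES-motor neurons 4 of the 14 had counts, summing to at most 35.2 CPM and led by *Csf1r*.

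*C4b* (ENSMUSG00000073418, 17:34728380-34743882), a complement C4 gene whose product is cleaved by the C1 enzyme, had 5 counts in all 40 libraries. All 5 lay in ES-motor neurons of the IL-1β and IL-6 group, replicate A (0.318 CPM). Its near copy *C4a* had 32 counts in 4 ES-astrocyte libraries and 8 counts in 2 ES-motor neuron libraries, and how reads common to both copies had been assigned is not known.

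*C3* (ENSMUSG00000024164, 17:57203970-57228136), the component on which all activation routes converge, was found in some stimulated ES-astrocyte cultures and in no control culture. In ES-astrocytes given C1Q and C5 its level was 22.9, 0, 0 and 20.2 CPM in replicates A to D (34, 0, 0 and 131 counts). All 4 control ES-astrocyte libraries had 0 counts, which allows up to 0.104 CPM over the group. Replicates A and D thus stood far above every control library, while B and C had the same value of 0 as the controls. These 4 libraries held 1659425, 10158932, 1510823 and 5056889 counts in replicates A to D. The part of depth in the *C3* values was not tested.

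With the other mediators *C3* in ES-astrocytes was 27.6, 1.32, 0 and 0 CPM after IL-1α and TNF-α (360, 4, 0 and 0 counts). After IL-1β and IL-6 it was 12.5, 9.29, 14.4 and 0 CPM (55, 46, 185 and 0 counts). After TGF-β2 it was 0 in all 4 libraries. One culture carried nearly all *C3* counts of the IL-1α and TNF-α group, whereas 3 of 4 cultures carried them after IL-1β and IL-6, and each of these groups still shared the value 0 with control. In ES-motor neurons *C3* was found in 1 of 20 libraries, replicate A of the IL-1β and IL-6 group, at 0.953 CPM (15 counts).

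The order of mean *C3* levels in ES-astrocytes was C1Q with C5 (10.8 ± 12.5 CPM, SD, n = 4), IL-1β with IL-6 (9.05 ± 6.4 CPM), IL-1α with TNF-α (7.24 ± 13.6 CPM), then control and TGF-β2 at 0. The first 3 did not differ from each other beyond their spread. The means of the C1Q with C5 and the IL-1α with TNF-α groups lay less than 1 SD above 0, and that of the IL-1β with IL-6 group more than 1 SD. By pooled level, all counts of a group over its summed library sizes, *C3* in the C1Q and C5 group was at least 75.4-fold higher than the floor of 3 counts over the control group. That bound became 22.4-fold without C1Q and C5 replicate D, 169-fold without replicate B and 46.6-fold without control replicate B. For IL-1α with TNF-α *C3* was at least 174-fold higher, a bound that became 5.37-fold without replicate A and 107-fold without control replicate B. For IL-1β with IL-6 it was at least 114-fold higher, or 70.5-fold without control replicate B. In bulk samples like these, fewer cells that express a gene and less of its RNA per cell cannot be told apart.

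The test across all genes did not settle these *C3* differences. With edgeR, where a call needed an adjusted p no higher than 0.05 and a log2 fold change beyond 1 in either direction, *C3* fell below the filter on low counts in each comparison of stimulated with control ES-astrocytes. With DESeq2 *C3* was called after IL-1β and IL-6 (log2 fold change 8.29, SE 2.22, adjusted p = 0.0418, counted in 3 of 4 stimulated and 0 of 4 control libraries), a comparison in which DESeq2 called 0.45% of genes with an adjusted p. It was the 1 member called of the 3 with an adjusted p there, and its adjusted p over the other settings in which it could be tested ran from 0.317 to 1.00 (edgeR). After C1Q and C5 the DESeq2 value of *C3* was 8.63 (SE 3.09, adjusted p = 0.355), and edgeR without the filter gave 9.06 (SE 3.09, adjusted p = 0.425, range over the settings run 0.355 to 0.55). Fitted log2 values against a group at 0 depend on the prior count and are no measure of size. The bounds above describe pooled reads, cover counting error only and leave out the spread between cultures.

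Other genes that respond to inflammatory stimuli were set beside *C3*. *Saa3*, an acute-phase gene, was at 109.6, 197, 54.3 and 17.1 CPM in ES-astrocytes given IL-1α and TNF-α and at 26.1, 96.2, 16 and 0 CPM in those given IL-1β and IL-6. It was at 0, 0, 0 and 13.9 CPM after C1Q and C5, and at 0 in all control and TGF-β2 ES-astrocytes. All 4 cultures given IL-1α and TNF-α therefore had *Saa3*, although only A and B of them had *C3*. Of the 20 ES-astrocyte libraries 7 had *C3*, 8 had *Saa3* and 6 had both, while *Lcn2* was found in 4 libraries and together with *C3* in 3. For the other genes of the list these numbers were 3 and 3 (*Cxcl1*), 3 and 2 (*Icam1*), 7 and 2 (*Ccl2*), 5 and 1 (*Tnfaip3*) and 19 and 7 (*Nfkbia*). The list of 7 NF-kB response genes summed to 20.2, 50.6, 48.4 and 27.5 CPM after C1Q and C5, and to 23.8, 25.9, 19 and 10.3 CPM in control ES-astrocytes. These ranges overlapped, and C1Q and C5 replicates A and D, which had *C3*, were the lower ones of their group in this sum. The list reached 124, 334, 148 and 52.7 CPM after IL-1α and TNF-α and 59.5, 152, 57.6 and 38.8 CPM after IL-1β and IL-6, all above every control library, and 25.2, 7.3, 16.3 and 47.5 CPM after TGF-β2, which overlapped with control. *Saa3* carried much of these sums. Without it the other 6 genes summed to 14.5, 137, 93.4 and 35.6 CPM after IL-1α and TNF-α, where replicate A, the library with the highest *C3*, lay within the control range, and to 33.4, 56, 41.6 and 38.8 CPM after IL-1β and IL-6, still above every control library. Of the TGF-β response list, 4 of 5 genes were in the annotation, led by *Smad7*, and they summed to 1.71 to 49.9 CPM in ES-astrocytes.

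Fibroblast markers varied among the same ES-astrocyte libraries. The 9 fibroblast or mesenchyme genes, 8 of them with counts (*Postn* at 0), summed to 412, 135, 90.6 and 188 CPM after C1Q and C5. In control ES-astrocytes they summed to 94.1, 1122, 206 and 280 CPM, led by *Dcn* (mean 221 CPM over the 20 libraries). After IL-1α and TNF-α they summed to 222, 241, 100 and 68.3 CPM, after IL-1β and IL-6 to 142, 37, 139 and 203 CPM, and after TGF-β2 to 448, 457, 409 and 405 CPM. Within the C1Q with C5 and the IL-1α with TNF-α groups the 2 libraries with *C3* had the 2 highest sums. Within the IL-1β with IL-6 group the library without *C3* had the highest, and control replicate B, the highest of all 20, and the 4 TGF-β2 libraries had no *C3*. The part of such cells in the *C3* values was not tested.

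**Figure D1:**
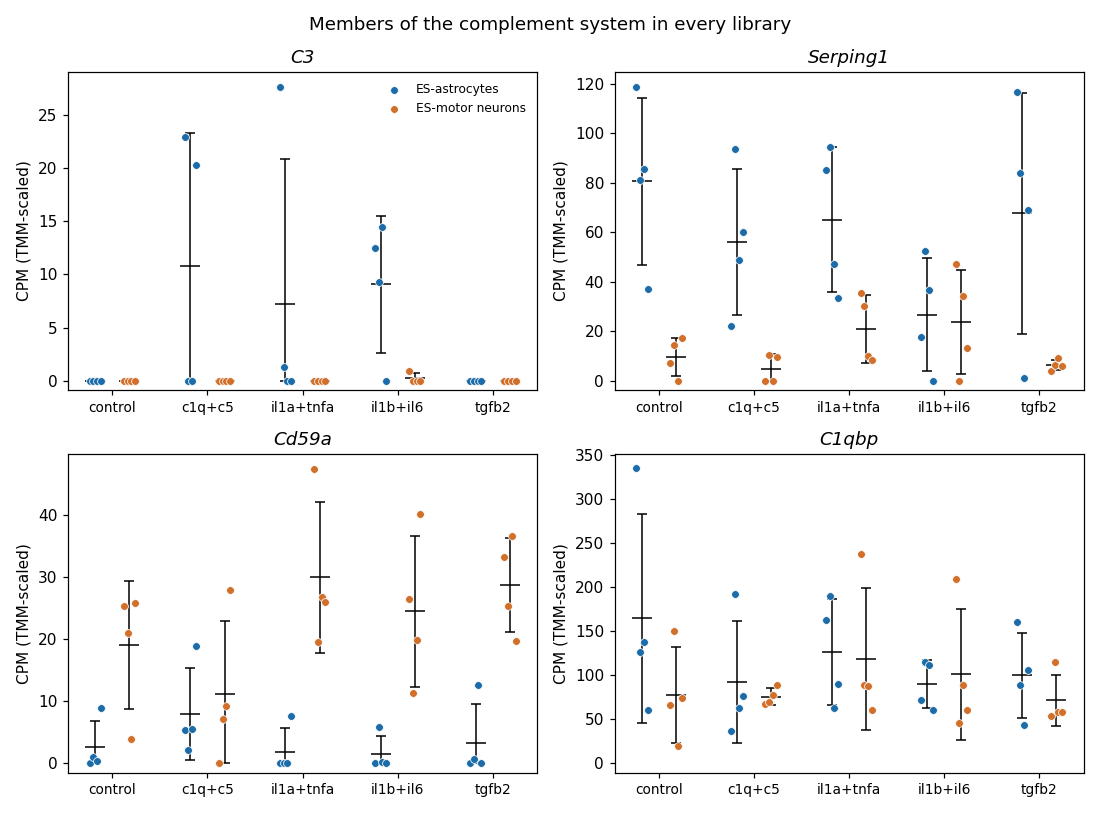
Level of *C3*, *Serping1*, *Cd59a* and *C1qbp* in every library (CPM, TMM-scaled, linear axis) by treatment, with points for single libraries and lines for the mean and SD of 4. *C3* stood above 0 in 7 of 20 ES-astrocyte libraries, and 15 ES-motor neuron libraries lay above every ES-astrocyte library for *Cd59a*.

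*C1qbp* (ENSMUSG00000018446, 11:70977836-70983026) encodes a protein of the mitochondrial matrix that can also bind the globular heads of C1q at the cell surface, and it was the member counted in all 40 libraries. In ES-astrocytes given C1Q and C5 it was at 37.1, 192, 62.7 and 75.9 CPM. In control ES-astrocytes it was at 335, 126, 137 and 60.2 CPM. Replicate A was the lowest of the C1Q and C5 group and the highest of the control group, and the groups overlapped. The log2 fold change was −0.79 (SE 0.62, edgeR adjusted p = 1.00), and −0.17 without control replicate A. With 1 library left out at a time it ran from −1.45 to −0.17. In ES-motor neurons *C1qbp* was at 67.6, 69.4, 76.9 and 88.2 CPM after C1Q and C5 and at 66.1, 150, 19.2 and 74 CPM in control. The C1Q and C5 values lay within the control range (log2 fold change −0.04, SE 0.48, edgeR adjusted p = 0.997). The first of them, replicate A of the C1Q and C5 ES-motor neurons, is 1 count in a library of 6557.

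Over the other groups *C1qbp* ranged from 45.2 to 237 CPM in ES-motor neurons and from 43 to 190.0 CPM in ES-astrocytes. Its group means in ES-astrocytes ran from 164 ± 118 CPM (SD, n = 4) in control through 126 ± 60.1 with IL-1α and TNF-α, 99.6 ± 48.6 with TGF-β2 and 92 ± 68.9 with C1Q and C5 to 89.6 ± 27.3 with IL-1β and IL-6. No neighbours in that order differed beyond their spread, and the place of control rested on replicate A, the library that stood apart. Without it the control mean was 108 ± 41.5 CPM (n = 3), below that of IL-1α with TNF-α. The edgeR log2 fold changes of *C1qbp* against control then moved from −0.35 to 0.29 (IL-1α with TNF-α), from −0.86 to −0.24 (IL-1β with IL-6) and from −0.66 to −0.07 (TGF-β2), none called with or without it. In ES-motor neurons the *C1qbp* means ran from 118 ± 80.1 CPM (IL-1α with TNF-α) through 101 ± 74.4 (IL-1β with IL-6), 77.3 ± 54.1 (control) and 75.5 ± 9.39 (C1Q with C5) to 71.3 ± 29 (TGF-β2), again with no step beyond the spread. The IL-1α with TNF-α mean rests on 114 counts in 4 shallow libraries. Without all libraries under 20% of the median total, which left none of that group, the means were 149 ± 85.2 CPM (IL-1β with IL-6, n = 2), 96.7 ± 46.2 (control), 78.2 ± 9.5 (C1Q with C5) and 77.1 ± 32.5 (TGF-β2, n = 3 each). The first step there exceeded the SD of control but not that of IL-1β with IL-6. The next exceeded the SD of C1Q with C5 but not that of control.

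*Serping1* (ENSMUSG00000023224, 2:84765387-84775444), the gene for C1 inhibitor, a serpin that inactivates the C1 proteases and the lectin pathway proteases, was at 22.3, 93.6, 49 and 60.3 CPM in ES-astrocytes given C1Q and C5. Control ES-astrocytes had 119, 81.2, 85.5 and 37 CPM. The groups overlapped, with a log2 fold change of −0.47 (SE 0.56, edgeR adjusted p = 1.00), and −0.21 without control replicate A. With 1 library left out at a time that value ran from −0.84 to −0.20. After IL-1β and IL-6 the values were 17.9, 52.5, 36.9 and 0 CPM, and after IL-1α and TNF-α they were 85.2, 94.3, 47.4 and 33.6 CPM. After TGF-β2 they were 117, 84.2, 1.08 and 69.3 CPM. Replicate D of the IL-1β and IL-6 group and replicate C of the TGF-β2 group were low, and every stimulated group overlapped with control.

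The order of *Serping1* means in ES-astrocytes was control (80.7 ± 33.6 CPM, SD, n = 4), TGF-β2 (67.8 ± 48.7), IL-1α with TNF-α (65.1 ± 29.2), C1Q with C5 (56.3 ± 29.5) and IL-1β with IL-6 (26.8 ± 22.8). Only the last step exceeded the SD of a neighbour, that of the IL-1β and IL-6 group, and the edgeR value of IL-1β with IL-6 against C1Q with C5 was −1.12 (SE 1.01, adjusted p = 1.00). Without control replicate A the control mean of *Serping1* was 67.9 ± 26.8 CPM (n = 3), level with TGF-β2.

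In ES-motor neurons *Serping1* was lower. It was at 0, 10.4, 0 and 9.53 CPM after C1Q and C5 and at 7.25, 14.7, 0 and 17.2 CPM in control. After IL-1α and TNF-α it was at 35.5, 30.2, 10.1 and 8.67 CPM, and after IL-1β and IL-6 at 47.1, 0, 34.3 and 13.4 CPM. Replicates B, C and D with C1Q and C5 lay within the control range, whereas replicate A, with its 6557 counts, could not be placed, since a count of 0 there allows up to 203 CPM. The 0 of control replicate C allows up to 11.5 CPM and that of IL-1β and IL-6 replicate B up to 33.9 CPM. The 4 highest values were those of replicates A and B with IL-1α and TNF-α and A and C with IL-1β and IL-6, although both groups overlapped with control. After TGF-β2 *Serping1* was at 4.14, 6.43, 9.13 and 6.01 CPM. The IL-1α and TNF-α values rest on 24 counts in 4 shallow libraries. Mean *Serping1* levels were 23.7 ± 21 CPM (SD, n = 4) for IL-1β with IL-6, 21.1 ± 13.8 for IL-1α with TNF-α, 9.78 ± 7.77 for control, 6.43 ± 2.06 for TGF-β2 and 4.97 ± 5.75 for C1Q with C5. The step from IL-1α with TNF-α to control exceeded the SD of control, and that from control to TGF-β2 exceeded the SD of TGF-β2. The last place of C1Q with C5 rested on replicate A, without which its mean was 6.63 ± 5.76 CPM (n = 3), above TGF-β2. Without all libraries under 20% of the median total the means were 40.7 CPM for IL-1β with IL-6 (replicates A and C, both above every control library), 13 ± 5.17 for control, 7.19 ± 1.7 for TGF-β2 and 6.63 ± 5.76 for C1Q with C5 (n = 3 each), with the first 2 steps beyond the SDs of both neighbours, and none were left for IL-1α with TNF-α. *Serping1* fell below the edgeR filter in both of these comparisons, and DESeq2 gave 1.24 for IL-1α with TNF-α (SE 0.90, adjusted p = 0.998, range over settings 0.935 to 1.00) and −0.66 for TGF-β2 (SE 0.94, adjusted p = 1.00, range 0.937 to 1.00).

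*Cd59a* (ENSMUSG00000032679, 2:104095801-104115354) encodes a lipid-anchored surface protein that blocks assembly of the membrane attack complex. In ES-astrocytes it was at 5.4, 2.14, 5.45 and 18.9 CPM after C1Q and C5 and at 0, 0.996, 0.365 and 8.91 CPM in control. All 4 C1Q and C5 libraries had counts, 3 of the 4 lay below control replicate D, and the log2 fold change was 1.67 (SE 1.75, edgeR adjusted p = 1.00). It was 1.25 without control replicate A, 4.12 without control replicate D and 0.75 without C1Q and C5 replicate D. In each other stimulated group 1 library held nearly all of the *Cd59a* level, at 7.53 CPM after IL-1α and TNF-α, 5.86 CPM after IL-1β and IL-6 and 12.7 CPM after TGF-β2, and the rest lay at or below 0.681 CPM.

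In ES-motor neurons *Cd59a* was at 0, 7.18, 9.23 and 27.9 CPM after C1Q and C5 and at 25.4, 21, 3.85 and 25.8 CPM in control. The groups overlapped (log2 fold change −0.44, SE 0.85, edgeR adjusted p = 0.997), and the 0 came from replicate A with its 6557 counts, where a count of 0 allows up to 203 CPM. With 1 library left out at a time the log2 fold change ran from −1.31 to −0.19. After IL-1α and TNF-α the values were 47.4, 19.4, 26.8 and 26 CPM, after IL-1β and IL-6 they were 26.5, 11.3, 19.8 and 40.1 CPM, and after TGF-β2 they were 33.1, 25.2, 36.5 and 19.7 CPM. Each of these groups overlapped with control too. Mean *Cd59a* levels in ES-motor neurons ran from 29.9 ± 12.1 CPM (SD, n = 4) with IL-1α and TNF-α through 28.7 ± 7.61 with TGF-β2, 24.4 ± 12.2 with IL-1β and IL-6 and 19 ± 10.3 in control to 11.1 ± 11.9 with C1Q and C5, and no step exceeded the spread. The first of these means rests on 28 counts in 4 shallow libraries. Without all libraries under 20% of the median total the means were 27.2 ± 8.57 CPM with TGF-β2 (n = 3), 24.1 ± 2.64 in control (n = 3), 23.1 ± 4.77 with IL-1β and IL-6 (n = 2) and 14.8 ± 11.4 with C1Q and C5 (n = 3). The first step then exceeded the SD of control and the last that of IL-1β with IL-6. In ES-astrocytes the means of all libraries ran from 7.96 ± 7.43 CPM with C1Q and C5 through 3.33 ± 6.22 with TGF-β2, 2.57 ± 4.25 in control and 1.88 ± 3.77 with IL-1α and TNF-α to 1.5 ± 2.9 with IL-1β and IL-6, with no step beyond the spread. Without control replicate A the control mean of *Cd59a* in ES-astrocytes was 3.42 ± 4.76 CPM (n = 3), just above that of TGF-β2. The near copy *Cd59b* had 83 counts in 4 ES-astrocyte libraries and 4 counts in 3 ES-motor neuron libraries.

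The clear differences among the members lay between the cell types. *Serping1* was counted in 19 of 20 ES-astrocyte libraries (median 56.4, highest 119 CPM) and in 16 of 20 ES-motor neuron libraries (median 9.33, highest 47.1 CPM). Of the ES-astrocyte libraries 18 lay above the ES-motor neuron median and 13 above every ES-motor neuron library (12 of 19 without control replicate A). *Cd59a* was counted in 12 of 20 ES-astrocyte libraries (median 0.523, highest 18.9 CPM) and in 19 of 20 ES-motor neuron libraries (median 25.3, highest 47.4 CPM). For *Cd59a* 19 of 20 ES-motor neuron libraries lay above the ES-astrocyte median and 15 above every ES-astrocyte library.

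In the comparison of ES-motor neurons with ES-astrocytes, with treatment as a term, edgeR called 3 of the 4 members tested, 1 upward and 2 downward, against 14.9% of all 13227 genes tested (3.86% upward and 11% downward). *Serping1* had a log2 fold change of −2.19 (SE 0.49, adjusted p = 0.000635, edgeR) and stayed called in 10 of 10 other settings and with each of the 40 libraries left out in turn, with values of −2.34 to −2.01. *Cd59a* had a log2 fold change of 3.02 (SE 0.74, adjusted p = 0.00204, edgeR) and also stayed called in all of these, with values of 2.50 to 4.68. *C3* had −4.25 (SE 1.18, adjusted p = 0.00803, edgeR), with 7 of 20 ES-astrocyte libraries above every ES-motor neuron value. With counts in 1 of 20 ES-motor neuron libraries, *C3* passed the filter only through the ES-astrocyte libraries, where it was higher. Its call is therefore not independent of its being tested. That call was lost with DESeq2 (−1.13, adjusted p = 0.736), without the 9 shallow libraries (−4.00, adjusted p = 0.134, edgeR) and without replicate A of all groups (−4.07, adjusted p = 0.0545, edgeR), and adjusted p over all settings ran from 0.0035 to 0.736. Between edgeR and DESeq2 the median log2 fold change of all genes moved from −0.21 to 1.32, and DESeq2 fitted 28630 genes, without the filter. With edgeR on the same 28630 genes the median was −0.24 and *C3* was called (−4.25, adjusted p = 0.0127). The cause of the shift and of the lost call was not tested. *C1qbp* did not pass (−0.33, SE 0.25, edgeR adjusted p = 0.431). Without control ES-astrocyte replicate A the values were −2.09 for *Serping1*, 2.95 for *Cd59a*, −4.27 for *C3* and −0.17 for *C1qbp*, with the same calls. By pooled level *C3* was 30.1-fold higher in ES-astrocytes, 18.9-fold without IL-1α and TNF-α replicate A, and at least 114-fold without ES-motor neuron IL-1β and IL-6 replicate A.

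Markers of other cell types moved with this comparison. The fibroblast list summed to 37 to 1122 CPM in ES-astrocytes (median 205) but to 0 to 5.92 CPM in ES-motor neurons, where 6 of its 9 genes had counts and *Lum*, *Col1a2* and *Postn* were at 0. *Dcn* was counted in all 20 ES-astrocyte libraries and *Col1a1* in 17. The part of cells with these markers in the *Serping1* and *C3* differences was not tested. The ES-motor neuron library with *C3* and *C4b*, replicate A of the IL-1β and IL-6 group, was the deepest of its group with 14329617 counts, and it had the highest *Serping1* level of all ES-motor neurons. Its astrocyte list summed to 63.6 CPM, the lowest of its group, with *Sox9* at 34.3, *Fabp7* at 16.2, *Slc1a2* at 12.6 and *Gja1* at 0.445 CPM and *Slc1a3* at 0. The medians of *Fabp7* and *Slc1a2* in ES-motor neurons were 21.7 and 12.8 CPM. Its fibroblast list summed to 0.826 CPM, and *Mnx1* stood at 2925 CPM. The part of RNA from other cells in its *C3* and *C4b* counts was not tested. In ES-motor neurons as a whole the astrocyte list summed to 0 to 733 CPM, led by *Sox9* (mean 266 CPM, against 79 CPM in ES-astrocytes), with *Aqp4* and *Aldh1l1* at 0.

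Against control, edgeR called none of the members that passed its filter with any mediator in either cell type. For C1Q with C5 it called 0 of the 3 members tested in ES-astrocytes (0% of 10865 genes called, 106 genes and 0 members at an unadjusted p under 0.05), where DESeq2 called 0 of 4 members (0.322% of genes), 1 of them, *C3*, at an unadjusted p under 0.05. In ES-motor neurons given C1Q and C5 edgeR called 0 of 3 members (0% of 7348 genes, with 322 genes and 0 members at an unadjusted p under 0.05), and DESeq2 called 0 of 3 (0%). For IL-1α with TNF-α edgeR called 0 of 2 members in ES-astrocytes (0% of 10444 genes) and 0 of 1 in ES-motor neurons (0% of 4479 genes), with 0 members at an unadjusted p under 0.05 in each and 0 called by DESeq2 (0.177% and 0.00552% of genes). For IL-1β with IL-6 edgeR called 0 of 2 members in ES-astrocytes (0% of 10240 genes) and 0 of 3 in ES-motor neurons (0% of 8327 genes), again with 0 members at an unadjusted p under 0.05. DESeq2 called *C3* in the former, as given above, and 0 members in the latter (0.00487% of genes). For TGF-β2 edgeR called 0 of 2 members in each cell type (0% of 10794 genes and 0.0126% of 7947 genes), with 0 members at an unadjusted p under 0.05 and 0 called by DESeq2 (0.457% and 0.14%). These 4 comparisons within a cell type share their 4 control libraries. With no change at all, a share of about 0.05 of genes would lie under an unadjusted p of 0.05. The 106 genes of the ES-astrocyte fit for C1Q with C5 were far fewer, so edgeR was conservative there. A member that was not called was therefore not shown to be unchanged.

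The largest edgeR values among the members tested against control were those of *Cd59a* in ES-astrocytes given C1Q and C5, above, and *Serping1* after IL-1β and IL-6. For *Serping1* the log2 fold change was −1.56 (SE 1.04) in ES-astrocytes and 1.33 (SE 0.90) in ES-motor neurons, each with an edgeR adjusted p of 1.00. The value in ES-astrocytes was −1.31 without control replicate A. The difference between these, tested as an interaction, was 2.89 (2.66 without that library, SE 1.44 with it, edgeR adjusted p = 1.00, DESeq2 adjusted p = 1.00, range over the settings run 0.575 to 1.00). In that interaction edgeR called 0 of 3 members (0% of 12104 genes, 552 genes and 0 members at an unadjusted p under 0.05), and DESeq2 called 0 of 4 members (0.181% of genes), 1 of them, *Serping1*, at an unadjusted p under 0.05. For the interaction of IL-1α and TNF-α with cell type edgeR called 0 of 3 members (0% of 11161 genes, 297 genes and 0 members at an unadjusted p under 0.05) and DESeq2 0 of 3 (0%), with edgeR values of 0.90 for *C1qbp*, 1.15 for *Cd59a* and 1.26 for *Serping1* (SE 0.82, 2.22 and 0.95). Without control ES-astrocyte replicate A they were 0.27, 1.53 and 0.99.

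Cytokine-treated ES-astrocytes were also compared directly with those given C1Q and C5. For IL-1β with IL-6, which had the same plate index, *C3* passed the filter and had a log2 fold change of −0.31 (SE 1.94, edgeR adjusted p = 1.00). With the replicate letter as a block that *C3* value was 2.10, so its direction was not settled. *Cd59a* had −2.41 (SE 1.86) and *C1qbp* −0.11 (SE 0.51) there, each with an edgeR adjusted p of 1.00. That of *Cd59a* was −6.46 (edgeR adjusted p = 0.595) without IL-1β and IL-6 replicate B and −1.52 without C1Q and C5 replicate D. EdgeR called 0 of 4 members (0% of 10346 genes, 173 genes and 0 members at an unadjusted p under 0.05) and DESeq2 0 of 4 (0.32%). For IL-1α with TNF-α against C1Q with C5, where plate index differed, edgeR called 0 of 3 members (0% of 9832 genes, 114 genes and 0 members at an unadjusted p under 0.05) and DESeq2 0 of 4 (0.14%). The edgeR values there were 0.44 for *C1qbp*, −2.13 for *Cd59a* and 0.20 for *Serping1* (SE 0.53, 1.92 and 0.53). That of *Cd59a* was −8.51 without IL-1α and TNF-α replicate D and −1.19 without C1Q and C5 replicate D, each with an edgeR adjusted p of 1.00. The 173 and 114 genes at an unadjusted p under 0.05 were far fewer than a share of 0.05 of the genes tested, so edgeR was conservative here too.

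The 9 members were set among 62 genes of the complement system, grouped by role and all found in the table. In ES-astrocytes 43 of the 62 had at least 1 count, 14 had counts in 10 or more of 20 libraries and 3 in all 20. In ES-motor neurons these numbers were 29, 10 and 2, and 18 genes had no count in either cell type. Among 19 initiators, which recognise a target or carry the first cleavages, 6 had counts in ES-motor neurons and 11 in ES-astrocytes. Among 7 genes of the terminal pathway, whose products build the pore, 1 and 3 had counts, and among 13 receptors 6 and 9. All 4 genes of the group of *C3* and the alternative pathway were counted in ES-astrocytes, and 3 of them in ES-motor neurons. Of the 19 regulators 13 had counts in ES-motor neurons and 16 in ES-astrocytes. The ES-motor neuron libraries were shallower (median 1213482 counts, against 4670242 in ES-astrocytes), so these numbers do not compare expression between the cell types. The part of depth in them was not tested.

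**Figure D2:**
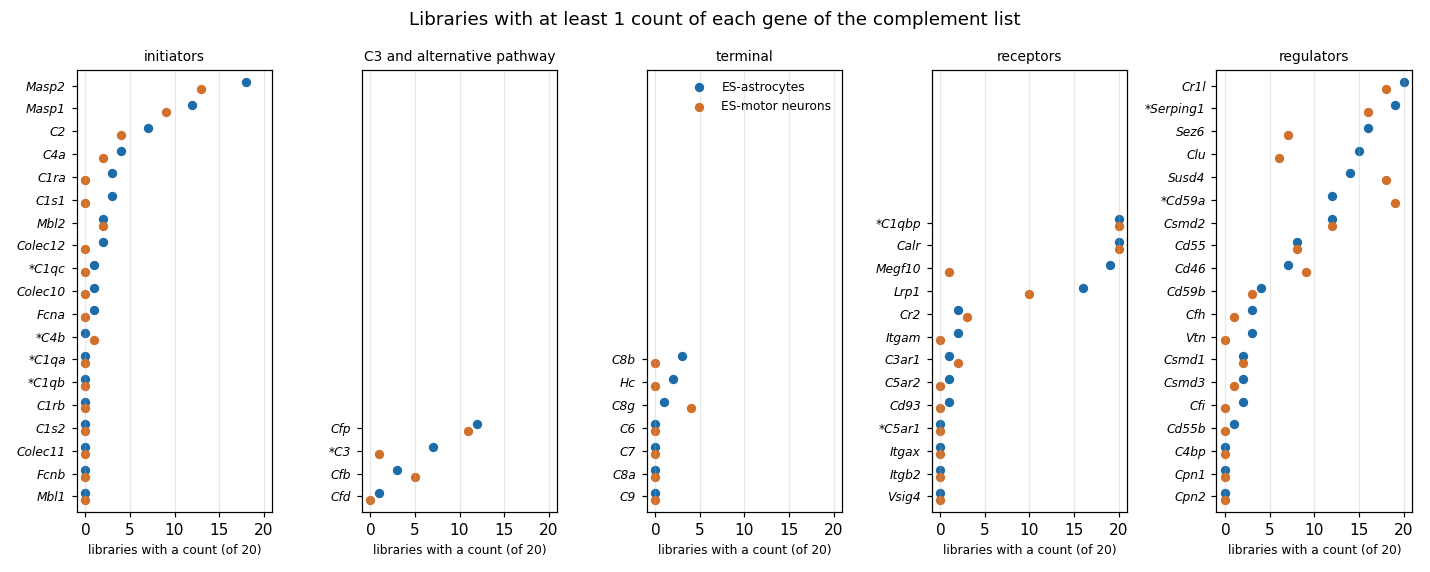
Number of libraries (of 20 per cell type) with at least 1 count of each of the 62 complement genes, in panels by role, with members marked by an asterisk. *C1qbp* and *Calr* were counted in all 40 libraries, whereas *C1qa*, *C1qb* and *C5ar1* were counted in none.

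Per kilobase of exon, the scale on which genes can be compared, *C1qbp* ranked behind 1 other of the 62 in ES-astrocytes at a mean of 40.5 ± 24.7 CPM per kilobase (SD, n = 20), and *Serping1* came next at 25.5 ± 15.2. *Cd59a* at 1.90 ± 2.87 and *C3* at 1.05 ± 1.76 CPM per kilobase came at ranks 9 and 12. The first of the list was *Calr*, for calreticulin, a chaperone that binds C1q at the cell surface, at 63.4 ± 14 CPM per kilobase. After *Serping1* came *Clu*, for clusterin, an inhibitor of pore assembly (5.13 ± 5.57), *Megf10*, a phagocytic receptor of astrocytes that binds C1q (3.61 ± 2.79), and *Cr1l*, the rodent regulator of C3 cleavage (3.42 ± 2.02). *Cfp*, for properdin, which stabilises the alternative C3 convertase, stood at 2.01 ± 2.86 CPM per kilobase. These 5 were named by mean counts per kilobase. On the scale of CPM per kilobase *Susd4*, a regulator, came before *Cfp* at 2.38 ± 2.48, and in ES-motor neurons it came at rank 5 (3.9 ± 2.37). *Serping1* and *Clu* were apart by more than the SD of either and *Calr* and *C1qbp* by more than that of *Calr*, whereas *C1qbp* and *Serping1* were not, nor were neighbours below *Clu* among the genes named. In ES-motor neurons the order was *Calr* (43.4 ± 14.9), *C1qbp* (31.4 ± 18.9), *Cd59a* (12.5 ± 6.65) and *Serping1* (5.68 ± 5.74 CPM per kilobase), where the steps from *C1qbp* to *Cd59a* and from *Cd59a* to *Serping1* slightly exceeded the SDs of both neighbours and the first step did not.

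Beside the members, edgeR called *Megf10* and *Clu* between the cell types, so 5 of the 17 listed genes tested were called, 1 upward and 4 downward in ES-motor neurons, beside the 14.9% of all genes (3.86% upward and 11% downward). DESeq2 called 4 of the 20 with an adjusted p, without *C3*, beside 13.3% of all genes. *Megf10* was counted in 19 of 20 ES-astrocyte libraries and in 1 of 20 ES-motor neuron libraries (log2 fold change −7.47, SE 0.83, adjusted p = 6.7e-10, edgeR). Like *C3*, it passed the filter only through the ES-astrocyte libraries. *Clu* was counted in 15 and 6 of 20 (−3.19, SE 0.94, adjusted p = 0.0113, edgeR). The median log2 fold change of the 17 listed genes was −0.49 and that of the 4 members −1.26, beside −0.21 for all genes tested. With C1Q and C5 the median over the 12 listed genes tested in ES-astrocytes was 0.08 beside −0.07 for all genes, and over the 3 members tested it was −0.47. Over the 7 listed genes tested in ES-motor neurons it was 0.07 beside −0.06 for all genes, and over the 3 members −0.44. In ES-astrocytes the list medians beside those of all genes were −0.31 and −0.08 for IL-1α with TNF-α (10 genes), −0.26 and −0.07 for IL-1β with IL-6 (10 genes) and −0.11 and −0.06 for TGF-β2 (11 genes). In ES-motor neurons they were 0.59 and 0.03 (2 genes), 0.53 and −0.01 (7 genes) and 0.0035 and −0.0042 (5 genes). EdgeR called 0 of the listed genes in each of these 8 comparisons, with 0 at an unadjusted p under 0.05. DESeq2 called 1, *C3* after IL-1β and IL-6 in ES-astrocytes.

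Genes with the most similar levels were looked for over the 20 ES-astrocyte libraries among 13195 genes, for the members with counts in at least 10 of them, by Pearson's r of log2(CPM + 1). For *C1qbp* they were *Slc25a5* (r = 0.873, 0.811 without the 2 farthest libraries, Spearman's rho 0.863), *Gm4617* (r = 0.871, 0.779, rho 0.859) and *Timm50* (r = 0.863, 0.778, rho 0.839). *C1qbp* itself had r = 0.505 with log10 of the library total. For *Serping1* they were *Mtx1* (r = 0.881, 0.666, rho 0.717), *Dusp11* (r = 0.874, 0.285, rho 0.422) and *Gm43737* (r = 0.871, 0.546, rho 0.701), which lies within the interval of *Mtx1*. The relation with *Dusp11* rested on the 2 farthest libraries. For *Cd59a* they were *Frmd8* (r = 0.787, 0.689, rho 0.745), *Gria4* (r = 0.778, 0.734, rho 0.762) and *Macf1* (r = 0.772, 0.629, rho 0.743). These values describe the 20 libraries, which share treatments and differ in depth, and are the top 3 of many genes, so no p is given.

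No annotated gene lies on the opposite strand of a member, and the one gene that overlaps a member is *Mir6978* within *C3*, with 0 counts. Promoter windows of 300 bases, from 250 before to 50 after the gene start, were available from RefSeq (GRCm38.p6) for 6 of the 9 members, and not for *C1qa*, *C4b* and *Serping1*. The window of *C3* is shown because *C3* was at 0 in control and present with several mediators, and that of *Saa3* because it was counted together with *C3* in 6 libraries. Each is written 5′ to 3′ on the minus strand of its chromosome, *C3* at chr17:57228087-57228386 and *Saa3* at chr7:46715627-46715926. Capitals mark matches, on either strand, to the C/EBP letters TTGCNNAA and the TATA letters TATAAA.
C3: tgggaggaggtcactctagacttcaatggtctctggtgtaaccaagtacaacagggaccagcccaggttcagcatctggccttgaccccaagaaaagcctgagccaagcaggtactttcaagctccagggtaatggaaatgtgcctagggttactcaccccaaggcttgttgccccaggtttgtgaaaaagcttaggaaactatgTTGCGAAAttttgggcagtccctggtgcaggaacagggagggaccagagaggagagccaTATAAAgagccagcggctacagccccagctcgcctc
Saa3: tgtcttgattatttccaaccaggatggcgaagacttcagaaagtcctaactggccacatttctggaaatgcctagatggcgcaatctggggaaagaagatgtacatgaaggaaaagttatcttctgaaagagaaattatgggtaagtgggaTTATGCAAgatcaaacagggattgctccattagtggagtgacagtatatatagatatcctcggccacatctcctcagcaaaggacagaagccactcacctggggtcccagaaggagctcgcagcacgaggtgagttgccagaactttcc
The *C3* window held TTGCNNAA at bases 206 to 213 and TATAAA at bases 265 to 270, and the *Saa3* window held TTGCNNAA on the other strand at bases 152 to 159 and no TATAAA. The first base of TATAAA in the *C3* window lies 14 bases after the annotated gene start, not before it. Of 32851 promoter windows of this length 10.8% held TTGCNNAA and 13.6% TATAAA. The NF-kB site of the immunoglobulin kappa enhancer (0.155% of windows) and the AP-1 letters TGACTCA (5.2%) were in neither of the pair, while the *C1qbp* window held TGACTCA at bases 145 to 151 on the other strand. The windows of *C1qb*, *C1qc*, *C5ar1* and *Cd59a* held none of the 4 motifs. These matches are descriptions of letters, and binding was not measured.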

How the data were processed

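The authors made libraries from poly(A) RNA of sorted cells and had the reads mapped with STAR at the sequencing facility. The deposited values are raw counts per Ensembl gene, and the STAR version, read counter, strand setting, genome build and annotation are not given. The other deposited unit, a plate index number in the sample sheet per the file headers, served to describe how treatments fell on plates. Gene names and coordinates come from GENCODE M21 (55227 of 55487 genes named, the rest holding 0.117% of counts).

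Counts were tested with edgeR 4.0.16 (limma 3.58.1, R 4.3.3) by filterByExpr on the groups, TMM scaling and robust quasi-likelihood fits of the libraries compared, and a call needed an adjusted p (Benjamini-Hochberg, over all genes tested) no higher than 0.05 with a log2 fold change beyond 1 in either direction. Alternatives were DESeq2 1.42.0, RLE scaling, no filter, the replicate letter as a block, all 40 libraries in 1 fit, no libraries under 20% of the median total, the second index primer as a term, and each library left out in turn (between the cell types, each replicate letter). A block for each treatment and letter, and each library left out in turn between the cell types, were added after seeing the data. On counts simulated from these libraries all true calls of both tools had the right sign. For IL-1β with IL-6 in ES-astrocytes and its interaction with cell type unchanged genes made up a larger share of the calls of DESeq2 than of edgeR. In the ES-astrocyte comparison edgeR left most of the changed genes uncalled, so a gene that was not called was not shown to be unchanged. The other values came from scipy 1.17.1, numpy 2.4.6 and pandas 2.3.3 under Python 3.11.15, and the plots from matplotlib 3.10.9.

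The genes named are the 9 members, every other gene called in the list of 62, the 5 others of highest mean counts per kilobase in ES-astrocytes, the 3 most similar genes of each member with counts in at least 10 of 20 ES-astrocyte libraries, and the top gene and the genes at 0 of each marker list (*Pdgfra* is in 2 of the lists). The top gene of 2 marker lists in ES-astrocytes is not reported here. *C4a*, *Cd59b*, *Susd4*, single markers and the promoter motifs were added after values were seen. The members and lists were chosen with earlier results of these data known.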

Additional observations from a re-analysis of the deposited data

Results flagged for a closer look

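Of 90 sets of 4 libraries (9 members in 10 groups) 36 had any spread, and in 10 of these 1 library stood far from the other 3, by a gap that took up most of the whole range (Dixon's criterion at 95%). Chance flags about 1 in 20 groups, and in sparse counts a single library above 0 meets the criterion by itself.

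*C3* stood out at 27.6 CPM in ES-astrocytes given IL-1α and TNF-α, replicate A, and at 0.953 CPM in ES-motor neurons of the IL-1β and IL-6 group, replicate A. *C4b* stood out at 0.318 CPM in the same ES-motor neuron library. *C1qc* stood out at 0.0973 CPM in ES-astrocytes given TGF-β2, replicate B, which is 1 count. *C1qbp* was high at 237 CPM in ES-motor neurons of the IL-1α and TNF-α group, replicate A, and at 115 CPM in those of the TGF-β2 group, replicate B. *Cd59a* in ES-astrocytes was high in 1 library of each group except C1Q with C5, at 8.91 CPM in control replicate D, 7.53 CPM in IL-1α and TNF-α replicate D, 5.86 CPM in IL-1β and IL-6 replicate B and 12.7 CPM in TGF-β2 replicate C.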

How the results depend on the processing

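Calls between the cell types were the stable ones for *Serping1* and *Cd59a*, kept in 10 of 10 alternatives, while the call of *C3* was kept in 7 of 10, and all 3 were kept with each of the 40 libraries left out in turn. With DESeq2 the number of genes called rose from 0 to 40, 25, 56 and 58 in ES-astrocytes against control (C1Q with C5, IL-1α with TNF-α, IL-1β with IL-6, TGF-β2), from 0 to 1 in ES-motor neurons with IL-1α and TNF-α and to 1 with IL-1β and IL-6, and from 1 to 17 with TGF-β2. It rose to 20 and 41 in IL-1α with TNF-α and IL-1β with IL-6 against C1Q with C5, and to 24 in the IL-1β and IL-6 interaction. The number of members called rose from 0 to 1 in ES-astrocytes given IL-1β and IL-6. Without the filter for IL-1α with TNF-α 1 gene was called in ES-motor neurons and 2 in ES-astrocytes, 5 in ES-motor neurons for TGF-β2 and 1 in IL-1α with TNF-α against C1Q with C5. In 1 fit of all 40 libraries 2 genes each were called in ES-astrocytes for C1Q with C5, IL-1β with IL-6, and IL-1β with IL-6 against C1Q with C5. For TGF-β2 in ES-motor neurons the count was 4 with the replicate block, 3 with the index primer and 0 without the shallow libraries. The cause of these changes was not tested.

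With the replicate letter as a block the sign changed for *C1qbp* in ES-motor neurons given C1Q and C5 (0.16) and TGF-β2 (0.0082), and for *C3* (2.10) and *C1qbp* (0.11) in IL-1β with IL-6 against C1Q with C5. Replicate letters correlated at −0.23 to 0.43 in 40 correlations between treatments of a cell type, all over 0.1 in 0 of 10 comparisons. Between the 2 cell types of the same treatment and letter they correlated at −0.14 to 0.098 in 20 correlations, 0 of them over 0.1, and 7 of 20 ES-astrocyte libraries correlated best with their own letter. The letters were therefore not taken as pairs. A block for each treatment and letter across the cell types, added after seeing the data, gave 1775 genes called in place of 1972 between the cell types, 0 in each interaction, the same calls of members, and 3.75 in place of 2.89 (unadjusted p of 0.0685 and 0.0591) for *Serping1* in the IL-1β and IL-6 interaction. With the index primer as a term *C1qbp* became 0.0081 and 0.069 in ES-motor neurons given C1Q and C5 and in IL-1β with IL-6 against C1Q with C5. Without the shallow libraries *Cd59a* became −0.090 in ES-motor neurons given IL-1β and IL-6.

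Between the cell types the replicate letters were left out whole, as planned, and each of the 40 libraries in turn was added after seeing the data. These fits gave 1447 to 2223 genes called (2019 without control ES-astrocyte replicate A). Elsewhere leaving out 1 library at a time gave 0 to 2 genes called in ES-motor neurons given C1Q and C5 or TGF-β2 and in each interaction. The log2 fold change of *C1qbp* ran from −0.63 to 0.29 in ES-astrocytes given IL-1α and TNF-α, and in ES-motor neurons from −0.32 to 0.48 (C1Q with C5), −0.19 to 0.98 (IL-1β with IL-6) and −0.46 to 0.37 (TGF-β2). That of *Serping1* ran from −0.61 to 0.20 in ES-astrocytes given TGF-β2 and from −0.066 to 0.56 in IL-1α with TNF-α against C1Q with C5. Against C1Q with C5 *Cd59a* ran from −8.51 to −1.19 with IL-1α and TNF-α and from −6.46 to −1.52 with IL-1β and IL-6. In IL-1β with IL-6 against C1Q with C5 *C3* ran from −0.69 to 0.38 and *C1qbp* from −0.33 to 0.58. *Cd59a* ran from −1.26 to 7.24 and from −1.30 to 5.10 in the interactions of IL-1α with TNF-α and IL-1β with IL-6.

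The shallow libraries could not be left out of IL-1α with TNF-α in ES-motor neurons, since all 4 were shallow. The index primer was not a term between cell types or in interactions, since it differs between them, nor was plate index, and the fit between cell types holds all 40 libraries already. Mean CPM of 8 values under RLE moved by less than 1 SD, and RLE moved the median log2 fold change of all genes from −0.05 to 0.17 and from 0.04 to 0.22 in the interactions. Depth limits what the ES-motor neurons can show, above all for genes at 0.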
